A study of Equus caballus with 19 samples.

Results

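The ADAMTS proteases described here were 10 genes chosen by name: the aggrecanases ADAMTS1, ADAMTS4, ADAMTS5 and ADAMTS9, the procollagen N-proteinases ADAMTS2, ADAMTS3 and ADAMTS14, the COMP-cleaving ADAMTS7 and ADAMTS12, and ADAMTS6. Members were taken by gene name from both tables of normalised counts, which list 29196 names each. A row was found for 9 of the 10 members, and ADAMTS3 was not analysed here.

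ADAMTS enzymes are secreted zinc metalloproteinases that carry a disintegrin-like module and thrombospondin type 1 repeats, through which they hold on to the matrix and to their substrates. The aggrecanases cut the large aggregating proteoglycans aggrecan and versican, and their activity is a known feature of cartilage and tendon breakdown. The procollagen N-proteinases trim the amino-terminal propeptide from fibrillar procollagens so that collagen fibrils can form. Most members are made as inactive precursors that furin-like convertases activate, and TIMP3 is their best known tissue inhibitor.

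The cells were adult tenocytes (genotype WT) of the superficial digital flexor tendon of Thoroughbred horses, the energy-storing tendon that is often injured. Every line was enzymatically isolated, expanded in culture and then kept for 14 days in 3D gels of bovine type I collagen. In the first batch, lines 1 to 5 were grown without added cytokine (control) and with 1 nM IL-1β, an inflammatory cytokine, which gave 10 libraries. In the second batch, lines 6 to 8 were grown without cytokine, with IL-1β at the same dose, and with that dose of IL-1β together with IL1Ra at 100 ng/ml, the antagonist that occupies the IL-1 receptor. These 9 libraries include none with IL1Ra alone.

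Normalised counts summed to between 43393903 and 49197980 per library in the first batch and between 24964149 and 34602014 in the second, and each batch was fitted on its own because the tables were normalised separately. Of the 10 tenocyte markers listed, 9 had a row. TNMD was listed at 0 in 18 of the 19 libraries and at 1.00 in the control library of line 6. The sum over the tenocyte markers was 1085410 to 1841440 normalised counts in control and 427965 to 855967 with IL-1β in the first batch. Most of this sum was COL1A1 and COL1A2 (control means of 634135 and 696773). Of the 8 tested, 7 were lower with IL-1β and passed the test, where 7.90% of all genes passed downwards. The other, DCN, was higher in 5 of 5 lines (log2-fold change 0.73) and in 3 of 3 lines of the second batch (1.61), and did not pass. The 3 mural cell markers (MYH11, RGS5, CSPG4) summed to 7890 to 14533 in control and 2255 to 3150 with IL-1β, and 2 of the 3 passed the test downwards. In the second batch the tenocyte sum was 276123 to 905463 in control, 311382 to 473595 with IL-1β and 154482 to 826091 with IL-1β + IL1Ra, and the mural sum 670 to 2625, 319 to 1117 and 277 to 2165. Among the 5 leukocyte markers PTPRC, CSF1R and CD3E stayed under 10 in all 19 libraries, while CD68 was higher with IL-1β (log2-fold change 2.64 in the first batch). CD14 was listed at 0 in most libraries and varied by line: in line 5 it was at 1947 in control and 2811 with IL-1β, in line 6 at 1195, 1158 and 1482 in control, IL-1β and IL-1β + IL1Ra, and in line 7 at 0, 1262 and 645. The leukocyte sum ran from 56.4 to 2033 in first-batch control and from 308 to 3657 with IL-1β, and the 3 endothelial markers summed to at most 81.6. With the tenocyte line as a block (explained with the first comparison), MYH11 also fell and PECAM1 rose in the first batch (limma adjusted p = 0.0161 and 0.0455). In the second batch 0 markers were DE with IL-1β without the block, where only 0.341% of all genes were DE. With the block COMP, SCX, TNC and CSPG4 fell and CD68 rose (limma adjusted p of 0.0223 to 0.0369), where 5.18% of all genes were DE. These marker levels moved with IL-1β alongside the genes described below, and their part in the results was not tested. In bulk RNA, fewer cells of a type and less RNA per cell cannot be told apart.

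IL-1β stimulation moved the ADAMTS genes in opposite directions in the first batch. ADAMTS4 and ADAMTS5 rose, and ADAMTS6, ADAMTS14, ADAMTS2 and ADAMTS1 fell, so that 6 of the 9 members were differentially expressed (DE). DE required a change of 1 or more on the log2 scale in either direction together with an adjusted p below 0.05, by limma with the Benjamini-Hochberg method over 14719 genes. Over all genes tested, 4.91% were DE upwards and 7.90% downwards. A second fit used the tenocyte line as a block, which compares the conditions within each line. In it ADAMTS9 also rose and 7 of 9 members were DE (3 up, 4 down), where 16.2% of all genes were DE in either direction. The control and IL-1β libraries did not overlap for 2 members that were higher and 4 that were lower, against 9.34% and 10.2% of all genes tested.

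**Figure D1:**
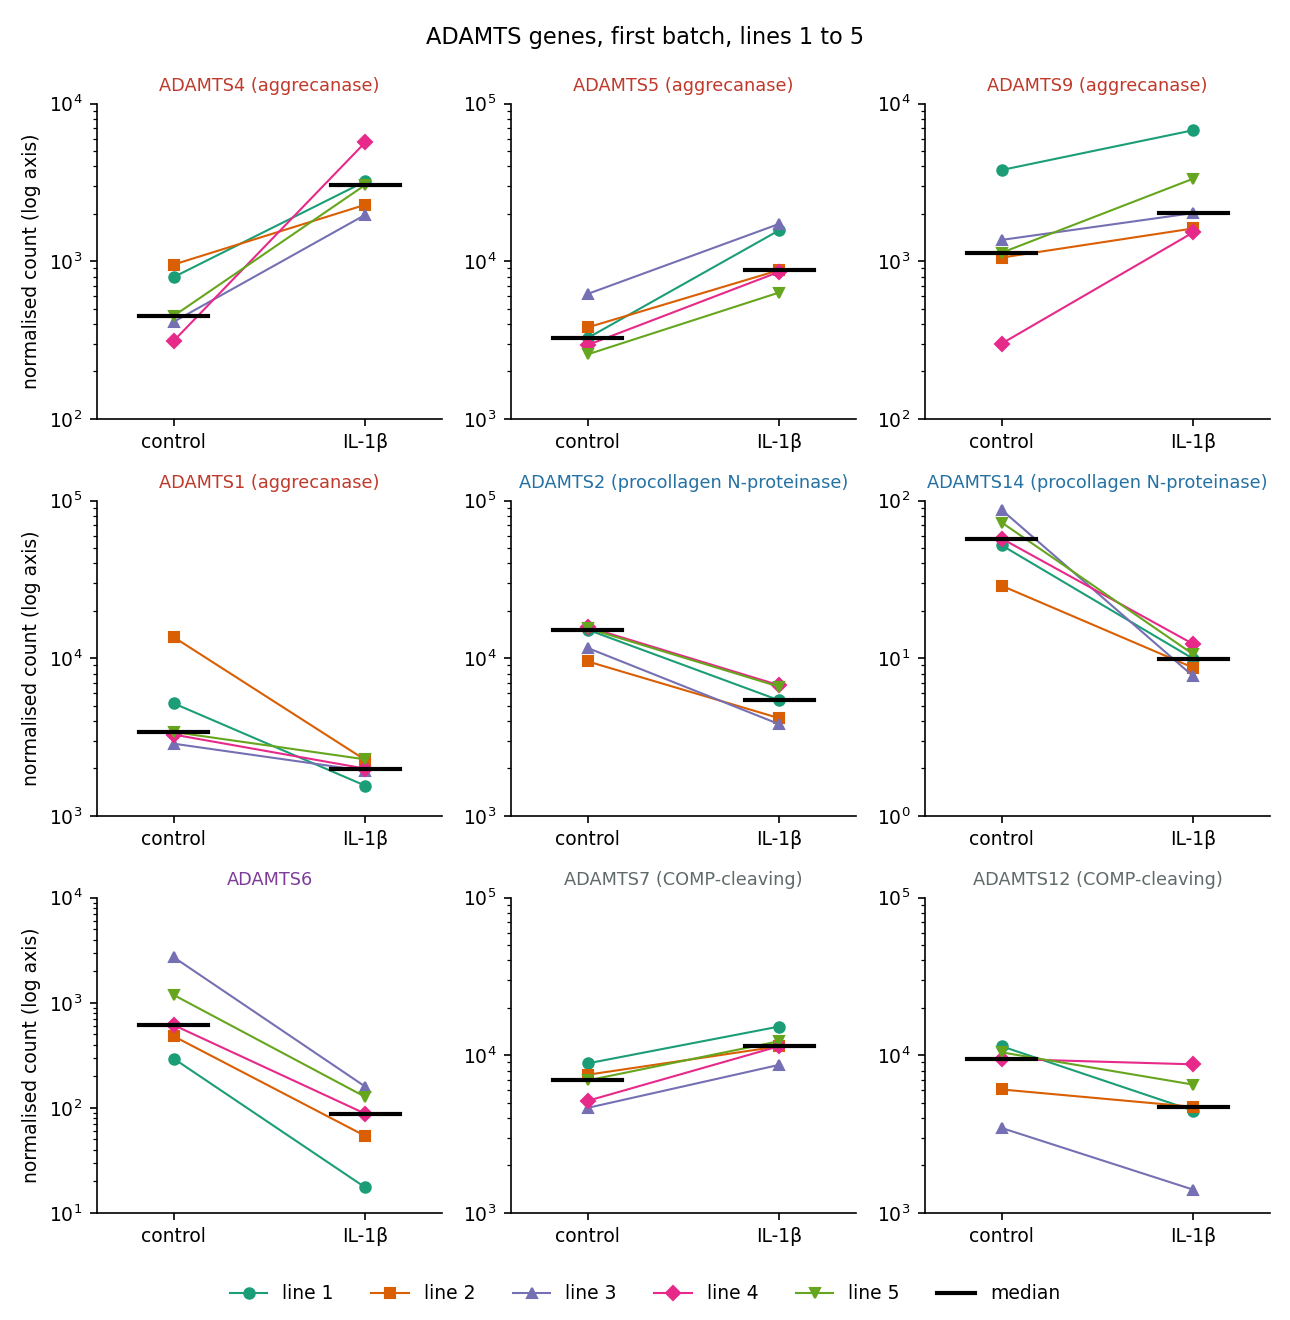
Normalised counts (log axis, a scale per panel) of the 9 ADAMTS genes in control and with IL-1β in the first batch; coloured lines join the 2 libraries of a tenocyte line and black bars mark the medians. ADAMTS4, ADAMTS5, ADAMTS9 and ADAMTS7 were higher with IL-1β in 5 of 5 lines, and ADAMTS1, ADAMTS2, ADAMTS14, ADAMTS6 and ADAMTS12 were lower in 5 of 5.

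ADAMTS4, one of the main aggrecanases, had the largest rise among the members. In lines 1 to 5 the control libraries held 794, 954, 413, 313 and 450 normalised counts, and the IL-1β libraries 3213, 2283, 1972, 5681 and 3051. Every IL-1β library was above every control library, and line 4, the lowest in control, was the highest with IL-1β. The group means were 585 ± 275 and 3240 ± 1459 (SD, n = 5), and the rise within a line ran from 2.39-fold in line 2 to 18.1-fold in line 4. The log2-fold change was 2.49 ± 0.35 (SE), with an adjusted p of 7.67e-04 by limma.

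ADAMTS5, the other main aggrecanase and the one most closely tied to aggrecan loss in mouse cartilage, was at 3262, 3806, 6208, 2942 and 2568 normalised counts in control. With IL-1β the same lines were at 15731, 8789, 17276, 8575 and 6337. The groups did not overlap, although the lowest IL-1β value (line 5) was close to the highest control value (line 3). ADAMTS5 rose by a log2-fold change of 1.56 ± 0.31 (SE; limma adjusted p = 0.00481), which was 2.31- to 4.82-fold within a line. Line 3 was the highest and line 5 the lowest in both conditions.

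ADAMTS9, a versican-cleaving protease that also cuts aggrecan, varied widely between the lines. Control levels were 3796, 1056, 1367, 301 and 1134 normalised counts, and levels with IL-1β were 6787, 1616, 2023, 1525 and 3342. The groups overlapped, since line 1 in control was above 4 of the 5 IL-1β libraries. All 5 lines were nevertheless higher with IL-1β, by 1.48- to 5.06-fold. The log2-fold change of 1.18 did not pass without the block (SE 0.62, limma adjusted p = 0.182) and passed with it (SE 0.27, adjusted p = 0.0130). Without line 4 this blocked call was lost.

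ADAMTS1, the fourth aggrecanase, moved against the other 3. It was at 5173, 13608, 2870, 3279 and 3404 normalised counts in control and at 1555, 2267, 1930, 1995 and 2284 with IL-1β. Control line 2 stood far above the other control libraries, while the IL-1β libraries lay close together. The groups did not overlap and the log2-fold change was −1.24 ± 0.37 (SE; limma adjusted p = 0.0308). This call depended on single lines: the adjusted p was 0.110 without line 1, 0.0601 without line 4 and 0.0646 without line 5, and without line 2 the log2-fold change was −0.90 (adjusted p = 0.0142), under the fold threshold. In the RefSeq table of the TB-T2T horse assembly ADAMTS1 and ADAMTS5 are next to each other with 0 genes listed between them, and these neighbours moved in opposite directions in all 5 lines.

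ADAMTS2, the main N-proteinase of type I procollagen, was at 15179, 9551, 11622, 15792 and 15488 normalised counts in control and at 5412, 4167, 3818, 6741 and 6602 with IL-1β. The groups did not overlap. Its decrease was the most even of the members, between 2.29-fold (line 2) and 3.04-fold (line 3) within a line, with a log2-fold change of −1.35 ± 0.20 (SE; limma adjusted p = 0.00100).

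ADAMTS14, a close relative of ADAMTS2 with the same kind of activity, had few normalised counts. Control libraries were at 52.1, 28.9, 87.4, 57.5 and 72.7, and IL-1β libraries at 9.94, 8.72, 7.70, 12.3 and 10.6. All 5 IL-1β values were below all 5 control values. The log2-fold change was −2.41 ± 0.33 (SE; limma adjusted p = 6.80e-04). A filter at 50 normalised counts removed ADAMTS14 from the test, and its values rest on few reads.

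ADAMTS6, a relative of ADAMTS10 that takes part in the assembly of fibrillin microfibrils, showed the largest decrease. It was at 294, 480, 2709, 613 and 1185 normalised counts in control and at 17.5, 54.0, 159, 87.9 and 127 with IL-1β. The highest IL-1β library (line 3) was below the lowest control library (line 1). Line 3 was the highest and line 1 the lowest in both conditions, so the decrease of 6.90- to 16.9-fold kept the order of those 2 lines. ADAMTS6 changed by −3.44 ± 0.69 (log2, SE; limma adjusted p = 0.00491).

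ADAMTS7 and ADAMTS12 bind and cut COMP, a pentameric glycoprotein abundant in tendon. ADAMTS7 was at 8885, 7527, 4638, 5143 and 6929 normalised counts in control and at 15223, 11396, 8695, 11421 and 12286 with IL-1β. All 5 lines had more ADAMTS7 with IL-1β, and the log2-fold change of 0.85 ± 0.20 (SE; limma adjusted p = 0.00961) passed the p threshold and stayed under the fold threshold. ADAMTS12 was at 11402, 6068, 3456, 9494 and 10436 in control and at 4454, 4708, 1404, 8761 and 6514 with IL-1β. It was lower in 5 of 5 lines, by as little as 1.08-fold in line 4. The groups overlapped, and the log2-fold change of −0.76 gave a limma adjusted p of 0.268 without the block and 0.0209 with it, under the fold threshold in both fits.

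**Figure D2:**
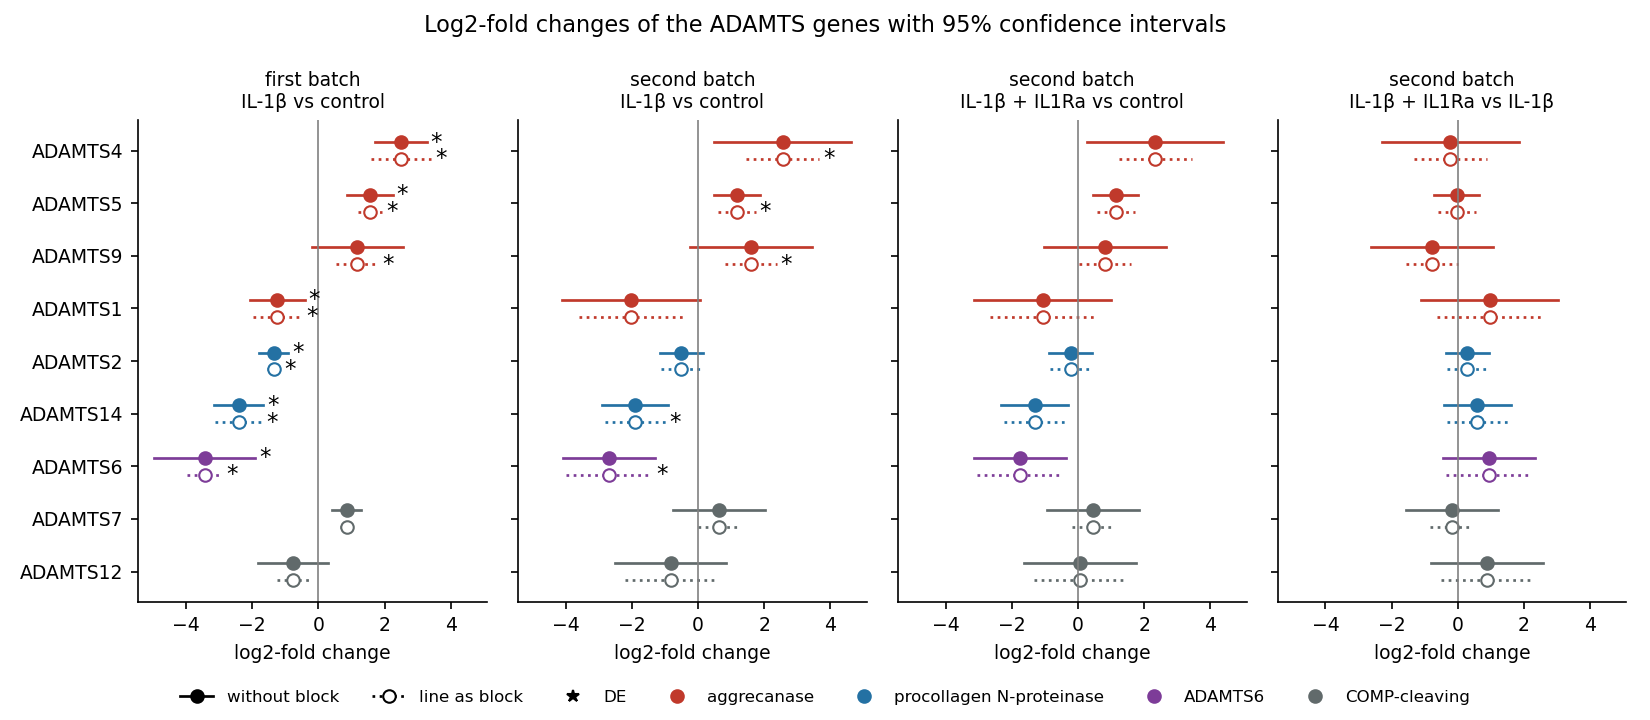
Log2-fold change (x axis) of each ADAMTS gene (y axis) in the 4 comparisons, with 95% confidence intervals from limma; filled circles and solid bars are from limma without a block, open circles and dotted bars from limma blocked by tenocyte line, and asterisks mark DE genes. In the first batch the intervals of ADAMTS4, ADAMTS5 and ADAMTS7 lay above 0 and those of ADAMTS1, ADAMTS2, ADAMTS14 and ADAMTS6 below it in both fits. Against IL-1β alone the intervals with IL1Ra spanned 0 for 9 of 9 members without the block.

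Aggrecanases and procollagen N-proteinases were set side by side by the mean log2 ratio of IL-1β to control within each line, as a description without a test. In the first batch the 4 aggrecanases averaged 1.00 ± 0.63 (SD over 5 lines) and ADAMTS2 and ADAMTS14 averaged −1.88 ± 0.39. The aggrecanase mean was above the N-proteinase mean in 5 of 5 lines, by 2.88 ± 0.81, from 1.53 in line 2 to 3.52 in line 4. Line 2 had the smallest gap, with an aggrecanase mean of 0.12 that included an ADAMTS1 ratio of −2.59. The median log2-fold change was 1.37 over the 4 aggrecanases, −1.88 over the 2 N-proteinases and −0.00 over all genes tested. The 4 aggrecanases leave out ADAMTS15, which also cuts versican. ADAMTS15 was lower with IL-1β in 5 of 5 lines of the first batch (log2-fold change −1.27, DE with the block only). In the second batch its log2-fold change was 0.83, not DE.

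**Figure D3:**
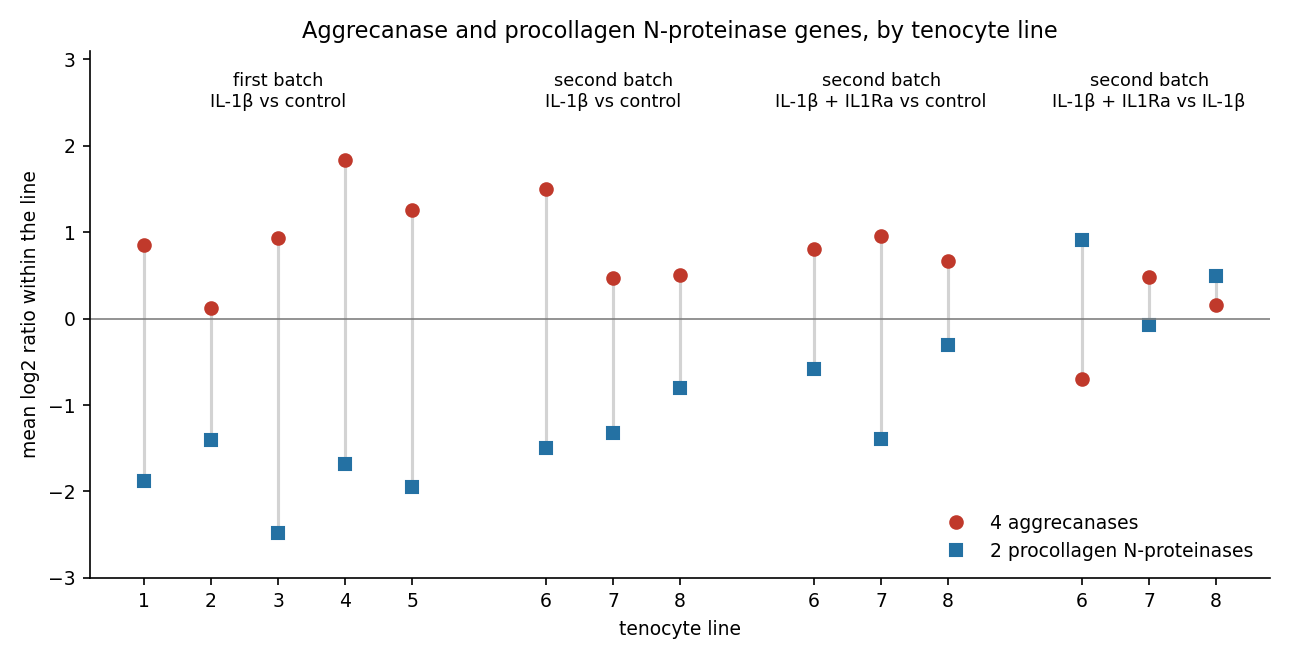
Mean log2 ratio (y axis) of the 4 aggrecanases (circles) and of the 2 procollagen N-proteinases (squares) in each tenocyte line (x axis), for the 4 comparisons; grey bars join the means of a line. With IL-1β against control the circles lay above the squares in lines 1 to 8, and with IL-1β + IL1Ra against IL-1β they lay below in lines 6 and 8.

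The other ADAMTS genes were at low levels or did not pass the test. Of ADAMTS8, ADAMTS10, ADAMTS13 and ADAMTS15 to ADAMTS20, 4 of 9 passed the filter on low values in the first batch and 0 were DE, with 1 at an unadjusted p under 0.05 (ADAMTS15). Over all genes tested 12.8% were DE and 39.5% had an unadjusted p under 0.05 by limma. With the line as a block 2 of the 4 fell, ADAMTS10 (log2-fold change −1.02, limma adjusted p = 0.0147), which associates with fibrillin-1, and ADAMTS15 (−1.27, adjusted p = 0.0399), which also cuts versican. ADAMTS8 was between 0 and 3.52 normalised counts in control and at 0 in 5 of 5 IL-1β libraries. ADAMTS16 and ADAMTS19 reached 41.1 and 53.6 in control line 3 and were at most 3.00 and 1.99 with IL-1β.

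The ADAMTS-like proteins lack the protease domain and sit in the matrix, several of them on fibrillin microfibrils. Of 7 listed genes 5 had a row, and 4 were DE in the first batch, where 12.8% of all genes were DE. ADAMTSL2 fell the most (log2-fold change −3.99 ± 0.36, SE; limma adjusted p = 7.56e-05), from 42.6 to 94.3 normalised counts in control to 2.08 to 5.63 with IL-1β. ADAMTSL5 fell by 1.10 on the log2 scale (adjusted p = 0.00127). ADAMTSL1 (1.10, adjusted p = 0.0267) and ADAMTSL4 (1.09, adjusted p = 0.00260) rose. PAPLN, papilin, had a log2-fold change of 1.64 that passed with the line as a block (adjusted p = 0.0348) and not without it (0.103).

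The genes that make substrates, inhibitors and activators of these proteases were taken from a list of 32, of which 28 were tested in the first batch. Of these 4 rose and 9 fell, where 12.8% of all genes were DE in either direction. With the line as a block 4 rose and 11 fell (TIMP4 and FBN2 added), where 16.2% of all genes were DE. The median log2-fold change over the 28 was −0.50, against −0.00 over all genes tested.

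The proteoglycan substrates went in opposite directions. ACAN, which encodes aggrecan, fell by 7.55 ± 1.06 on the log2 scale (SE; limma adjusted p = 7.29e-04), from 6340 to 40668 normalised counts in control to 13.7 to 872 with IL-1β. VCAN, which encodes versican, rose by 1.28 ± 0.19 (adjusted p = 0.00107), from 24390 to 43309 in control to 58683 to 85111. Neither pair of groups overlapped. BCAN and BGN did not pass, and NCAN and HAPLN1 were at most 5.80 and 2.64 normalised counts in the first batch.

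COMP, the substrate of ADAMTS7 and ADAMTS12, fell by 4.08 ± 1.01 on the log2 scale (SE; limma adjusted p = 0.0132). Among the procollagens that ADAMTS2 and ADAMTS14 trim, COL1A1 (−1.83), COL1A2 (−1.33) and COL5A1 (−1.82) fell with adjusted p of 0.00588, 0.0136 and 0.00592. COL5A2 (−0.69, adjusted p = 0.0410) stayed under the fold threshold. COL2A1 was at most 4.15 normalised counts and COL3A1 was not analysed here. On the C-proteinase side, which removes the other propeptide of procollagen, TLL1 fell by 4.34 (adjusted p = 3.50e-05) and the enhancer PCOLCE by 2.28 (0.00222), whereas PCOLCE2 rose by 1.69 (0.0141). BMP1 (0.30, adjusted p = 0.0908) and TLL2 (0.04, adjusted p = 0.862) did not pass.

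SDC4 was listed with the inhibitors and clearance genes, although this syndecan takes part in the activation of ADAMTS5. SDC4 rose in the first batch, from 3890 to 7305 normalised counts in control to 18570 to 25170 with IL-1β (log2-fold change 2.00 ± 0.16, SE, limma adjusted p = 3.31e-05). TIMP3 ran from 1353 to 2209 in control and from 881 to 6452 with IL-1β and did not pass (0.14, adjusted p = 0.851). The endocytic receptor LRP1, which removes ADAMTS4 and ADAMTS5, gave −0.64 (adjusted p = 0.117, and 0.0257 with the line as a block, under the fold threshold). TIMP4 gave −2.37, which passed with the block (adjusted p = 0.0131) and not without it (0.0584). Of the activating convertases PCSK5 rose by 1.78 (adjusted p = 0.00257), PCSK6 fell by 3.64 (adjusted p = 1.52e-04) and FURIN gave 0.05 (adjusted p = 0.870). CCBE1, which works with ADAMTS3 in the processing of VEGF-C, fell by 1.23 (adjusted p = 0.0480), and VEGFC gave 0.57 (adjusted p = 0.0324), under the fold threshold. FBN1, FBN2 and LTBP1 were not DE. FBN1 was lower in 5 of 5 lines and gave −0.95 (adjusted p = 0.0384), under the fold threshold. FBN2 gave −1.55 (adjusted p = 0.169, and 0.0411 with the block).

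**Figure D4:**
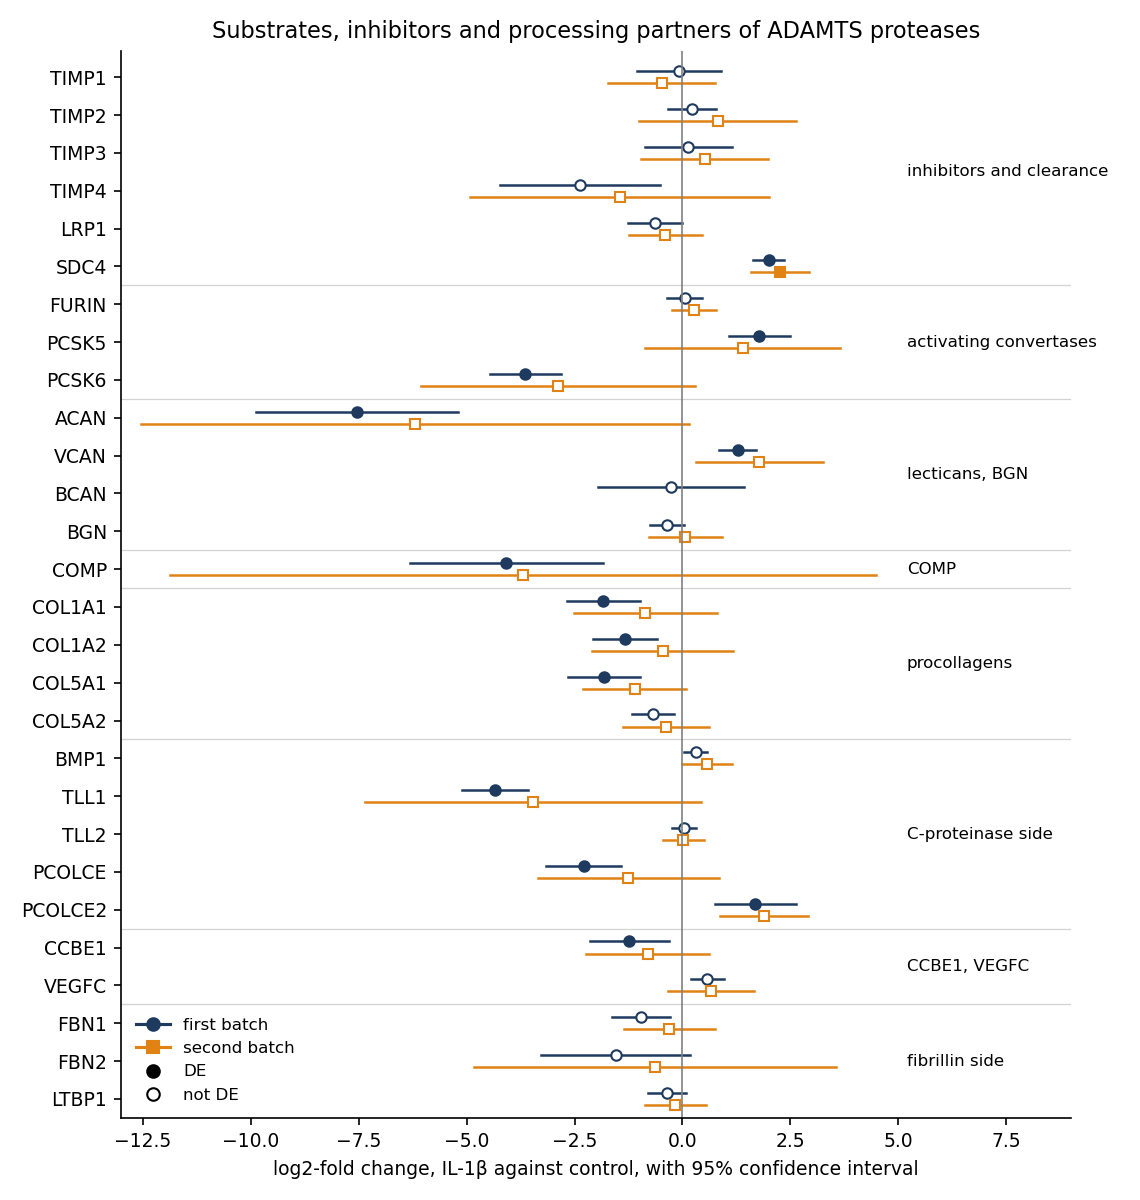
IL-1β against control as log2-fold change (x axis, with 95% confidence intervals from limma without a block) for the tested substrates, inhibitors and processing partners (y axis), in the first batch (circles) and the second batch (squares); filled symbols are DE. In the first batch 4 genes were DE upwards and 9 downwards, and in the second batch SDC4 was DE.

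In the second batch, IL-1β against control was repeated in lines 6 to 8, with fewer libraries and a wider spread between lines. No member was DE without a block (0 of 9), and 0.269% and 0.0718% of the 16705 genes tested were DE upwards and downwards. An unadjusted p under 0.05 was reached by 4 of 9 members and by 11.4% of all genes. In the blocked fit 5 of 9 were DE: ADAMTS4, ADAMTS5 and ADAMTS9 rose and ADAMTS6 and ADAMTS14 fell, where 2.59% of all genes were DE in each direction. With 2 lines left, the blocked fit called 0 of 9 members without line 7 or line 8, where it called 0% and 0.197% of all genes, so these fits do not bear on the members in particular. Without line 6 it called 3 members (ADAMTS4 up, ADAMTS1 and ADAMTS12 down) and 8.51% of all genes. Without line 6 and without a block, ADAMTS4 was the only member DE (adjusted p = 0.0334), with 2.18% of all genes. The groups did not overlap for 2 members that were higher (ADAMTS4 and ADAMTS5) and 2 that were lower (ADAMTS6 and ADAMTS14), against 8.82% and 7.61% of all genes tested. Whether the response differed between the batches was not tested.

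**Figure D5:**
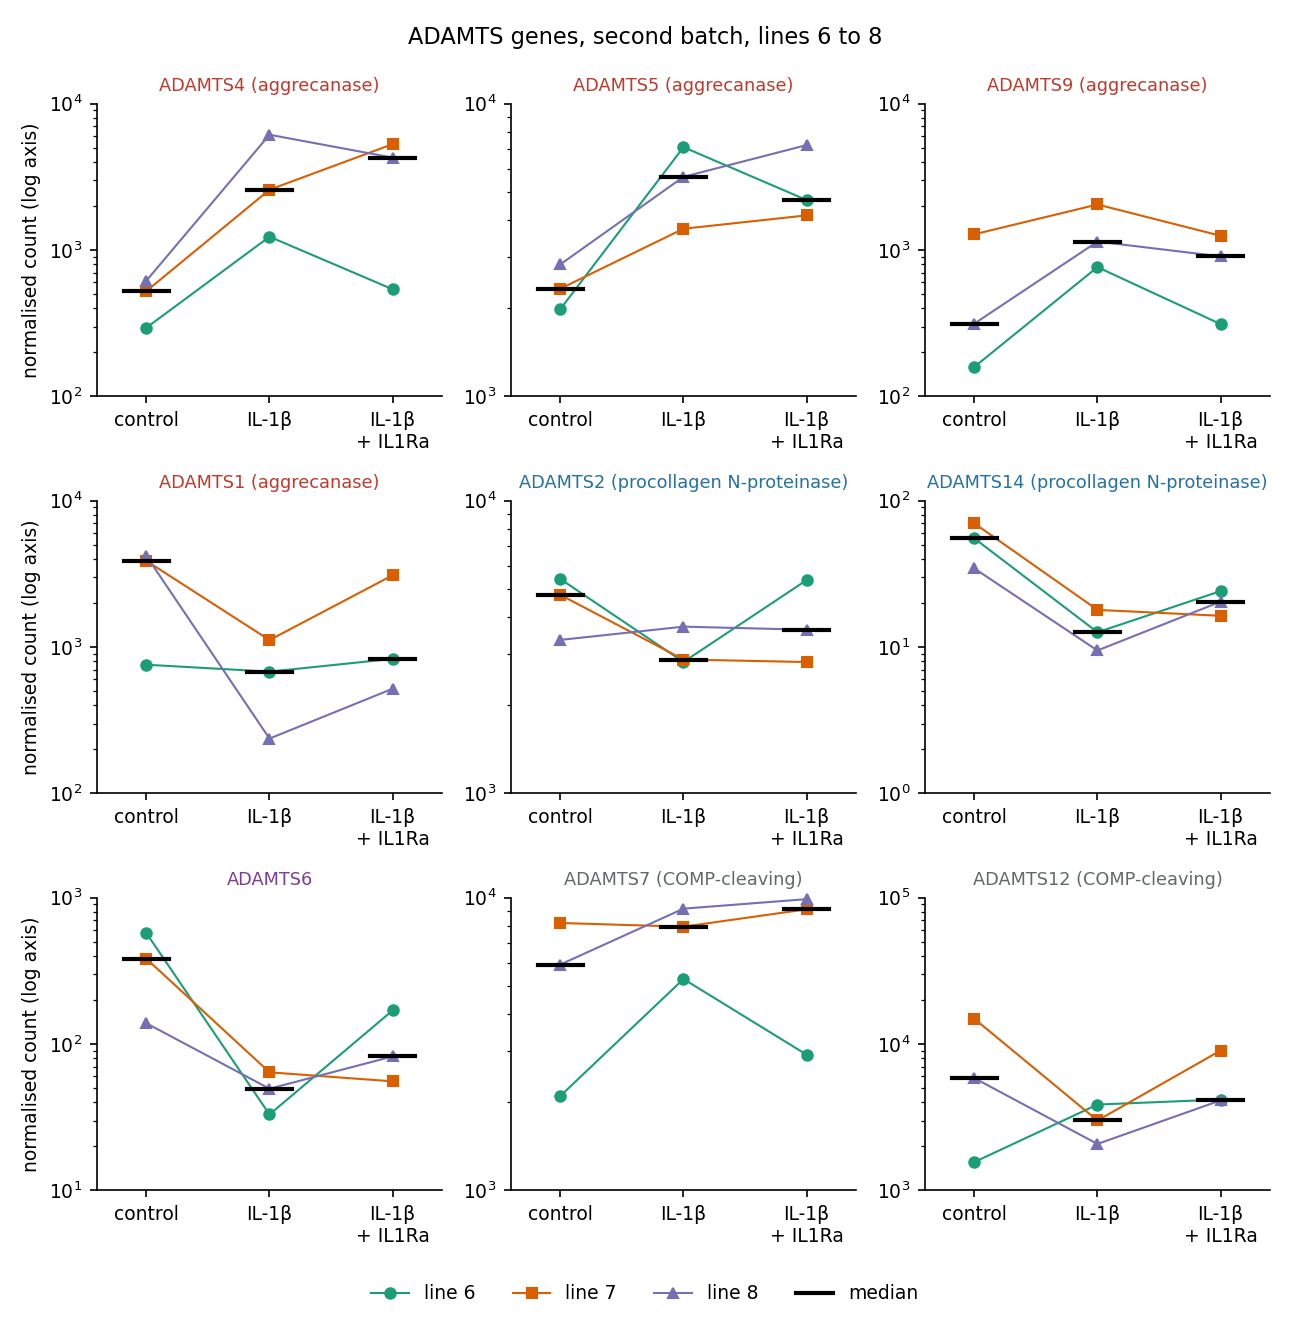
Normalised counts (log axis, a scale per panel) of the 9 ADAMTS genes in control, with IL-1β and with IL-1β + IL1Ra in the second batch; coloured lines join the 3 libraries of a tenocyte line and black bars mark the medians. ADAMTS4 was at 295 to 618 in control, 1233 to 6137 with IL-1β and 540 to 5291 with IL-1β + IL1Ra.

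The 3 comparisons of the second batch share libraries, so their values are given side by side and are not independent of each other. IL-1β + IL1Ra differed from control in 0 of 9 members in either fit, where 0.0120% of all genes were DE without and 0.251% with the block. An unadjusted p under 0.05 was reached by 4 of 9 members without the block (5.67% of all genes) and 5 with it (13.4%). IL-1β + IL1Ra differed from IL-1β in 0 of 9 members in either fit, where 0% and 0.00599% of all genes were DE. An unadjusted p under 0.05 was reached by 0 of 9 members in both, and by 2.78% and 8.38% of all genes. The design was small and the intervals were wide, so that a p above the threshold does not show that 2 conditions were alike. Without line 6 the blocked fit called 2 members, ADAMTS4 and ADAMTS5, higher in IL-1β + IL1Ra than in control, and 3.21% of all genes in either direction.

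ADAMTS4 in the second batch was at 295, 524 and 618 normalised counts in control (lines 6 to 8), 1233, 2583 and 6137 with IL-1β and 540, 5291 and 4282 with IL-1β + IL1Ra. With IL-1β all 3 lines were above all 3 controls, by 4.18-, 4.92- and 9.92-fold. With IL1Ra added, line 6 went back to within the range of the controls, line 7 was above its own IL-1β library and line 8 stayed at 6.92 times its control. The log2-fold changes were 2.56 for IL-1β against control (limma adjusted p = 0.318, and 0.0273 with the block) and 2.33 for IL-1β + IL1Ra against control (0.827 and 0.132). Between IL-1β + IL1Ra and IL-1β it was −0.23, with a 95% confidence interval of −2.29 to 1.84.

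ADAMTS5 was at 1988, 2334 and 2825 normalised counts in control, 7103, 3739 and 5625 with IL-1β and 4688, 4153 and 7219 with IL-1β + IL1Ra. Every library with IL-1β, with or without IL1Ra, was above every control. The log2-fold changes against control were 1.17 with IL-1β (limma adjusted p = 0.176, and 0.0381 with the block) and 1.14 with IL-1β + IL1Ra (0.582 and 0.140). Between IL-1β + IL1Ra and IL-1β the log2-fold change of ADAMTS5 was −0.03 (95% confidence interval −0.72 to 0.66).

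ADAMTS9 was at 159, 1281 and 314 normalised counts in control, 764, 2047 and 1142 with IL-1β and 312, 1252 and 905 with IL-1β + IL1Ra. Line 7 was the highest and line 6 the lowest in every condition, and the groups overlapped. With IL-1β the 3 lines were higher by 4.78-, 1.60- and 3.63-fold (log2-fold change 1.60, limma adjusted p = 0.505 without and 0.0382 with the block). With IL1Ra added, all 3 lines were lower than with IL-1β alone (−0.78, 95% confidence interval −2.63 to 1.07).

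ADAMTS1 was at 757, 3877 and 4190 normalised counts in control, 679, 1116 and 237 with IL-1β and 830, 3093 and 519 with IL-1β + IL1Ra. Line 6 hardly moved, with 1.12-fold lower counts with IL-1β, whereas lines 7 and 8 were 3.47- and 17.6-fold lower. The log2-fold change of −2.03 did not pass (SE 0.91, limma adjusted p = 0.446, and 0.130 with the block). With IL1Ra added, all 3 lines were higher than with IL-1β alone, by 1.22-, 2.77- and 2.19-fold (log2-fold change 0.96, 95% confidence interval −1.11 to 3.04).

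ADAMTS2 was at 5398, 4764 and 3344 normalised counts in control, 2811, 2867 and 3712 with IL-1β and 5352, 2810 and 3624 with IL-1β + IL1Ra. Lines 6 and 7 were lower with IL-1β and line 8 was 1.11-fold higher, and the log2-fold change was −0.51 (limma adjusted p = 0.559, and 0.319 with the block). With IL1Ra added, line 6 was at its control level, while lines 7 and 8 were each 1.02-fold below their IL-1β libraries.

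ADAMTS14 was at 55.2, 69.9 and 34.4 normalised counts in control, 12.6, 17.9 and 9.47 with IL-1β and 24.1, 16.4 and 20.4 with IL-1β + IL1Ra. All 6 libraries with IL-1β, with or without IL1Ra, were below the 3 controls. The decrease with IL-1β was even, at 4.13-, 3.74- and 3.38-fold (log2-fold change −1.90, limma adjusted p = 0.137, and 0.0373 with the block). Against control, IL-1β + IL1Ra gave −1.31 (0.777 and 0.231), and against IL-1β it gave 0.60 (95% confidence interval −0.41 to 1.60).

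ADAMTS6 was at 572, 382 and 139 normalised counts in control, 33.0, 64.1 and 49.5 with IL-1β and 170, 55.6 and 82.2 with IL-1β + IL1Ra. The IL-1β libraries lay below the controls, whereas line 6 with IL1Ra overlapped with the control of line 8. The decrease with IL-1β ran from 16.9-fold in line 6 to 2.77-fold in line 8 (log2-fold change −2.70, limma adjusted p = 0.125, and 0.0375 with the block). With IL1Ra added, line 6 was 5.01-fold above its IL-1β library and line 7 was 1.15-fold below it (log2-fold change 0.95, 95% confidence interval −0.44 to 2.34).

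ADAMTS7 was at 2103, 8195 and 5912 normalised counts in control, 5274, 7961 and 9174 with IL-1β and 2909, 9127 and 9886 with IL-1β + IL1Ra, with log2-fold changes of 0.64, 0.46 and −0.18 in the 3 comparisons. ADAMTS12 was at 1562, 14876 and 5849 in control, 3858, 3003 and 2076 with IL-1β and 4176, 9020 and 4119 with IL-1β + IL1Ra. For ADAMTS12 line 6 was 2.47-fold higher with IL-1β and lines 7 and 8 were 4.95- and 2.82-fold lower (log2-fold change −0.83, limma adjusted p = 0.787). With IL1Ra added, all 3 lines had more ADAMTS12 than with IL-1β alone, by 1.08-, 3.00- and 1.98-fold (log2-fold change 0.90, 95% confidence interval −0.79 to 2.59).

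Whether the IL1Ra library of a line lay nearer to control than its IL-1β library was counted for each member and line. It did so for 8 of 9 members in line 6, 3 of 9 in line 7 and 7 of 9 in line 8. The share over all genes was not computed, so these counts do not set the members apart from other genes. Small gaps count too: in line 6 the log2 ratios of ADAMTS1 to control were −0.16 with IL-1β and 0.13 with IL-1β + IL1Ra. ADAMTS1 and ADAMTS9 were nearer to control in 3 of 3 lines, ADAMTS5 and ADAMTS7 in 1 of 3, and the other 5 members in 2 of 3. The groups did not overlap between IL-1β + IL1Ra and control for ADAMTS5, which was higher, and ADAMTS14, which was lower, where 5.79% and 5.96% of all genes did so. Between IL-1β + IL1Ra and IL-1β the groups did not overlap for ADAMTS12, which was higher, and for 0 members that were lower (3.12% and 3.35% of all genes).

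In the second batch the 4 aggrecanases averaged a log2 ratio of 0.82 ± 0.59 (SD, n = 3) with IL-1β against control and ADAMTS2 and ADAMTS14 averaged −1.21 ± 0.36. With IL-1β + IL1Ra against control the means were 0.81 ± 0.14 and −0.76 ± 0.57. The mean of the N-proteinase pair with IL-1β rested mostly on ADAMTS14, which had few counts (log2-fold change −1.90, against −0.51 for ADAMTS2). In line 8 ADAMTS2 was higher with IL-1β (log2 ratio 0.15), so the negative mean there came from ADAMTS14 alone. The gap between the 2 groups of genes was 2.03 ± 0.87 with IL-1β and 1.57 ± 0.71 with IL-1β + IL1Ra. It narrowed from 2.99 to 1.39 in line 6 and from 1.31 to 0.97 in line 8, and widened from 1.78 to 2.35 in line 7.

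Other genes of the family and of the list of partners were mostly not DE in the second batch. Without the block 0 of 3 tested ADAMTS genes outside the members and 0 of 5 ADAMTS-like genes were DE with IL-1β (0 and 2 with an unadjusted p under 0.05, by limma). Over all genes tested 0.341% were DE and 11.4% had such an unadjusted p. With the block ADAMTSL1 rose (log2-fold change 1.32, adjusted p = 0.0120) and ADAMTSL2 fell (−3.68, adjusted p = 0.0497), where 5.18% of all genes were DE. Of the 27 partners tested 1 was DE with IL-1β without the block, SDC4, at 4139 to 6318 normalised counts in control and 17275 to 27666 with IL-1β (2.27, adjusted p = 0.0275). With the block SDC4 rose and 4 fell, ACAN (−6.20), COMP (−3.69), TLL1 (−3.47) and PCSK6 (−2.88), with adjusted p of 0.0178 to 0.0349. VCAN gave 1.78 (adjusted p = 0.330, and 0.0955 with the block). With IL1Ra added SDC4 was at 8031 to 13032, below every IL-1β library and above every control, with limma adjusted p of 0.566 against control and 1.00 against IL-1β. ADAMTS15 with IL1Ra was at 9.88, 0 and 3.17 normalised counts against 46.3, 25.4 and 46.5 with IL-1β, and it did not pass (log2-fold change −3.45, adjusted p = 1.00, and 0.166 with the block). For the partners 0 of 27 were DE with IL-1β + IL1Ra against control or against IL-1β in either fit (1 and 2 with an unadjusted p under 0.05 without the block, 9 and 6 with it). Over all genes such an unadjusted p was reached by 5.67% and 2.78% without the block and by 13.4% and 8.38% with it.

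The genes whose log2 values followed each member most closely over the 10 libraries of the first batch were named as a description, since both conditions and all lines enter and any gene that responds to IL-1β can correlate. Pearson's r over the 9 libraries of the second batch is given after it. ADAMTS4 was closest to ETV1 (0.989, then 0.854) and TSHZ1 (0.981, then 0.913), which encode transcription factors, and ADAMTS5 to AIFM2 (0.967, then 0.617) and BCL6 (0.963, then 0.715). ADAMTS2 was closest to LRRC17 (0.980, then 0.876) and ROR1 (0.979, then 0.586), and ADAMTS14 to ZNF704 (0.991, then 0.466) and CIZ1 (0.989, then 0.655). ADAMTS6 was closest to TCP11L1 (0.987, then 0.439) and CCDC158 (0.986, then 0.844), and ADAMTS7 to YWHAG (0.986, then 0.642) and NFYA (0.978, then 0.870). For ADAMTS9 the nearest were SPTLC2 (0.961, then 0.463) and HDAC8 (0.944, then 0.669), and for ADAMTS1 NRM (0.969, then 0.346) and POLH (0.962, then 0.447). ADAMTS12 was nearest to ATP6AP1L (0.968, then 0.114) and LAMA2 (0.965, then −0.13). Among the members themselves the closest pair was ADAMTS2 and ADAMTS14 in the first batch (r = 0.938, then 0.646) and ADAMTS6 and ADAMTS14 in the second (r = 0.873 in the first, then 0.937).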

How the data were processed

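RNA sequencing of 19 libraries of equine tenocytes in 3D culture was used. The signal values were deposited as normalised counts: the authors quantified reads on the EquCab3.0 transcriptome with Salmon, brought them to gene level through tximport and normalised the batches separately with DESeq2 1.36 (R 4.2.1). No count model was fitted, because whole reads were not recovered.

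Values were analysed as log2(normalised count + 1), which understates the change of genes with few counts. A gene entered the test when 5 libraries (first batch) or 3 (second batch) reached 10 normalised counts. The tool was limma 3.58.1 under R 4.3.3 (lmFit, then eBayes with a mean-variance trend), adjusted over all genes by Benjamini-Hochberg and tested on simulated data. DE genes passed an adjusted p of 0.05 and changed by 1 or more on the log2 scale. Normalised counts are not scaled by transcript length, so levels are not compared between genes, and their sums are not read depths.

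Libraries of 1 line come from 1 donor line by their titles. Same-line libraries deviated together from their condition means (r of 0.35 to 0.58 over 5 first-batch pairs, 0.54 to 0.79 over 9 second-batch pairs), compared with −0.36 to 0.29 and −0.62 to 0.25 across lines. Deviations from a condition mean cancel out within the condition, so positive same-line values lower those across lines. These ranges are therefore not independent, and the contrast between them is overstated. The line as a block was therefore an alternative fit, and its value is given where it changes a call. Its leave-one-out fits were chosen after seeing the data. Other alternatives were pseudocounts of 0.5 and 5, no filter and a filter at 50, upper-quartile and equal-sum scaling, no trend, fits of 2 conditions only, the p threshold alone and leaving out each line.

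The members, gene lists and markers were chosen with earlier results of these data known. The genes named are all members with a row, the DE genes of the family and partner lists and those at or near 0, and the 2 genes most correlated with each member. Genes of those lists that changed only with the block, and a few listed for context, were named after their values were seen. Gene names were matched to the RefSeq table of the TB-T2T assembly (23397 of 29196), which differs from the assembly the authors used, so no coordinates are given. Promoter and protein sequences were not used here.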

Additional observations from a re-analysis of the deposited data

Results flagged for a closer look

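Of 18 groups of 5 first-batch libraries tested (9 members in 2 conditions), 1 held a library far from the others. ADAMTS1 in control line 2 was at 13608 normalised counts, and its gap to the next library was 0.786 of the range of the group, above Dixon's critical value of 0.71. On the log2 scale used for the tests the gap was 0.622 of the range, under that value. Chance gives such a library in about 1 of 20 groups. Without line 2 the log2-fold change of ADAMTS1 was −0.90, against −1.24 with it, and ADAMTS1 was still lower with IL-1β in each of the other 4 lines. The cause of the high value was not tested.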

How the results depend on the processing

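The 5 and 3 lines limit what could be called. For IL-1β against control in the second batch, 0.341% of all genes were DE without and 5.18% with the block. Leaving out line 7 or line 8 left at most 0.197% DE in either fit. Leaving out line 6 raised the shares to 2.18% without and 8.51% with the block. The count of DE members with IL-1β against control in the second batch was 0 without a block and 5 with the replicate block by tenocyte line. Leaving out each line gave 5 to 6 members in the first batch (6 to 7 with the block), with 9.32% to 11.7% of all genes DE (14.5% to 16.1%). In the second batch it gave 0 to 1 (0 to 3 with the block), with 0% to 2.18% of all genes (0% to 8.51%). The member count did not always follow the count of all genes. With the block, leaving out line 6 lowered it from 5 to 3 while the share of all genes rose from 5.18% to 8.51%. For IL-1β + IL1Ra against control it gave 0 members without and 0 to 2 with the block (0% to 3.21% of all genes with it), and against IL-1β it gave 0 in both. The block changed no call of a member other than those given in the report.

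Other pseudocounts, filters, scalings, fits of 2 conditions and the fit without trend gave 5 to 6 DE members in the first batch (5 with the filter at 50, which removed ADAMTS14) and 0 in the second. The p threshold alone gave 7 in the first batch (ADAMTS7 added, with 27.7% of all genes) and 0 in the second (0.341% of all genes with IL-1β).

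The aggrecanase mean minus the N-proteinase mean was 2.70 to 3.22 in the first batch under all alternatives, 1.55 to 2.39 with IL-1β and 1.18 to 1.87 with IL-1β + IL1Ra against control in the second. For IL-1β + IL1Ra against IL-1β, leaving out 1 line gave −0.971 to 0.112, where the value turned positive without line 6.

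Small log2-fold changes with IL1Ra, none DE, turned direction. Leaving out 1 line against control gave −0.387 (line 8) to 0.0516 (line 7) for ADAMTS2 and −0.614 (line 6) to 0.456 (line 7) for ADAMTS12. Against IL-1β it gave −0.0318 (line 6) to 0.450 (line 8) for ADAMTS2, −0.855 (line 7) to 0.258 (line 6) for ADAMTS4, −0.224 (line 8) to 0.256 (line 6) for ADAMTS5 and −0.375 (line 7) to 0.153 (line 6) for ADAMTS7. Equal-sum scaling gave −0.0178 for ADAMTS12 against control and 0.0723 for ADAMTS5 against IL-1β. The cause was not tested. Equal-sum scaling moved the median of all genes to −0.19, −0.07 and 0.11 in the 3 comparisons of the second batch, and changed the split of DE genes with IL-1β from 45 up and 12 down to 35 and 22.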
